A study of Homo sapiens with 22 samples.

Results

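Cells that had lost SETD2 were set against cells that had been treated with TGF-β, the classical way to drive an epithelial cell into the mesenchymal state. The comparison used 6 of the 22 RNA-seq libraries of the study, chosen by their labels: 4 libraries from untreated SETD2 KO clones and 2 from TGF-β-treated WT cells. All of the libraries were human RPTEC, an immortalized line of renal proximal tubule epithelial cells, and these 6 were grown in 2% serum. The other 16 libraries entered the shared estimate of the spread, and libraries outside the 6 also counted in the choice of genes to test. The 2 untreated WT libraries among them also served as a reference level. Of these 16, the untreated WT and the SETD2 rescue of KO2 (4 libraries) were likewise in 2% serum. The other 12 were in regular medium with 10% serum, namely Rescue1, Rescue2 and WT lines that carried the empty eGFP vector, OCT2, PRRX1 or SOX2.

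KO1 and KO2 were 2 CRISPR/Cas9 clones, each sequenced in 2 replicates, so that a change shared by both clones and a change of a single clone can be told apart, but the effect of SETD2 loss and of clonal growth after editing cannot. Clone names follow the labels of the libraries. The study also gives values of these libraries in which the names of the clones are exchanged, so which clone a KO1 or KO2 value belongs to rests on these labels. The treated group was the WT line, with SETD2 intact, that had 24 h in 2% serum and then 72 h of TGF-β at 10 ng per mL. The KO libraries received no TGF-β, so the groups differed in genotype, in treatment and in how long each had been in its state. The labels do not say that the replicates were separate cultures. The p-values below measure only the spread between replicates of a group, and the difference between the clones does not enter them unless the clones are pooled.

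Trimethylated lysine 36 of histone H3 marks transcribed genes, and SETD2 is the enzyme that writes it. Loss of SETD2 is frequent in clear cell renal carcinoma. TGF-β binds a pair of receptor kinases that phosphorylate SMAD2 and SMAD3. The SMADs then enter the nucleus and switch on genes for matrix, for the contractile cytoskeleton and for the transcription factors of the epithelial-to-mesenchymal transition (EMT), while genes for junctions and polarity are switched off. In the kidney this program is best known from tubular injury and fibrosis.

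The guide used for both clones is shown because it fixes where the gene was cut, with its PAM in capitals.
SETD2 sgRNA: tagaatatgatgaccctcgtCGG
Its 20 bases matched 1 place in SETD2 (ENSG00000181555), chr3:47122997-47123016 on the plus strand of GRCh38, in exon 3 of a gene that spans chr3:47016428-47164113. SETD2 mRNA stood at 1046 and 1130 normalized counts in KO1 and at 1050 and 1052 in KO2, against 1955 and 2021 in the TGF-β-treated cells and 1852 and 2061 in untreated WT. All 4 KO libraries lay below both treated libraries, with a log2 difference of −0.89 (SE 0.06, limma adjusted p = 1.4e-08), so the mRNA was lower but far from absent, and the total mRNA of a gene edited within an exon does not measure its protein.

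Normalized counts were recovered from the log2 values that the authors deposited, and they corresponded to about 12400000 to 19000000 reads assigned to genes per library in the 6 libraries. Between 14082 and 16115 genes were above 0. KO1 replicate 2 stood apart with the lowest number, 14082, although it had the most reads. In KO1, 545 genes had at least 10 normalized counts in replicate 1 and 0 in replicate 2, and 350 the reverse, against 191 and 178 in KO2 and 181 and 152 in the treated cells. Where the call of a gene, or the count or median of a list, changed sign or moved by over 1.5 times without this library, the value without it is given with that gene or list. The untreated WT replicates also differed from each other, for example in COL1A1, the main chain of type I collagen, with 11919 and 532 normalized counts.

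The label of a proximal tubule line was held against 8 markers. PAX8, a kidney lineage factor, stood at 2322 and 3743 normalized counts in WT, 1634 and 1535 after TGF-β, and between 5056 and 6561 in the KO clones. LRP2 and SLC34A1, which define the differentiated proximal tubule, were under 10 in all of the WT, TGF-β and KO libraries. The 8 markers summed to 3439 and 3237 after TGF-β and to 6683 to 8484 in the KO libraries, with PAX8 as the largest of the 8. The water channel AQP1 had 432 and 448 after TGF-β and 6.39 to 19.1 in KO, whereas the endocytic receptor CUBN had 62.4 and 52.5 against 123 to 333. The brush border enzymes GGT1 and ANPEP stood at 831 and 752 and at 40.2 and 62.4 after TGF-β, with 711 to 1091 and 87.7 to 472 in KO.

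Markers of other cells were low with a few exceptions. The defining leukocyte genes PTPRC and CD3E were at or near 0 throughout. The 5 leukocyte markers summed to 59 and 48 after TGF-β and to 154 to 372 in KO, nearly all of it CD68, a lysosomal protein of macrophages that other cells also express, with 52.6 and 43.1 after TGF-β. It had 364 and 210 in the KO1 libraries and 190 and 145 in KO2. Of the endothelial genes, KDR, the VEGF receptor, was 0 in both treated libraries and 103 to 145 in the KO libraries, whereas PECAM1 was 0 in all but KO1 replicate 2 (25.1). The 7 fibroblast and pericyte markers summed to 46829 and 45269 after TGF-β and to 1136 to 5033 in the KO libraries, and after TGF-β the sum was nearly all COL1A1 (46598 and 45007). THY1, a surface marker of fibroblasts, was the reverse, with 5.19 and 14.4 after TGF-β, against 203 and 138 in KO1 and 1136 and 1135 in KO2. PDGFRA, a receptor of fibroblasts, had 75.9 and 110 after TGF-β, which lay between 231 and 139 in KO1 and 67.9 and 57.2 in KO2. In bulk RNA, more cells of a type and more RNA per cell cannot be told apart, and the part of other cells in the differences below was not tested.

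SETD2 KO cells and TGF-β-treated cells were far apart. Of 14585 genes tested, 1506 were called higher in KO (10.3%) and 1433 lower (9.83%), where called means a limma adjusted p under 0.05 and a log2 difference beyond 1 in either direction, on the log2(normalized count + 1) scale. Every difference given is KO minus TGF-β with both clones weighted equally. The median difference was 2.40 for the genes called higher, −1.94 for those called lower and −0.02 for all genes tested. All 4 KO libraries exceeded both treated libraries in 3122 genes (21.4%) and lay below both in 3262 (22.4%). The differences reached far at the upper end, with 170 genes over 5 and 78 under −5 on the log2 scale. For 4937 genes (33.8%) the 95% interval of the difference, unadjusted, lay wholly within 1 log2 unit of 0. These calls and intervals leave the difference between the clones out of the error. In a fit that pooled the 4 KO libraries as 1 group, 1062 genes were called higher and 756 lower.

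Against the treated cells KO1 gave more calls than KO2. KO1 had 1569 genes higher (10.8%) and 1744 lower (12%) than the treated cells. KO2 had 1366 higher (9.37%) and 1106 lower (7.58%). Both counts use the same 2 treated libraries and are not independent of each other. The direct comparison of the clones gave 361 genes higher in KO1 (2.48%) and 655 lower (4.49%), fewer than either clone against TGF-β. This count rested on the spread shared with the other libraries: in a fit on the 4 KO libraries alone it fell from 1016 in all to 1. With single libraries left out it ran from 642 without KO2 replicate 2 to 1745 without KO1 replicate 1, and was 835 without KO1 replicate 2.

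The distance between libraries gave the same order. The median absolute log2 difference over 8255 genes was 0.557 between KO1 and the treated cells and 0.456 between KO2 and the treated cells. It was 0.372 between the clones and 0.271, 0.156 and 0.16 between the replicates of KO1, KO2 and the treated cells. Both clones were also far from untreated WT, by 0.62 and 0.472, whereas treated and untreated WT were 0.379 apart. These distances are a description without a test.

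**Figure D1:**
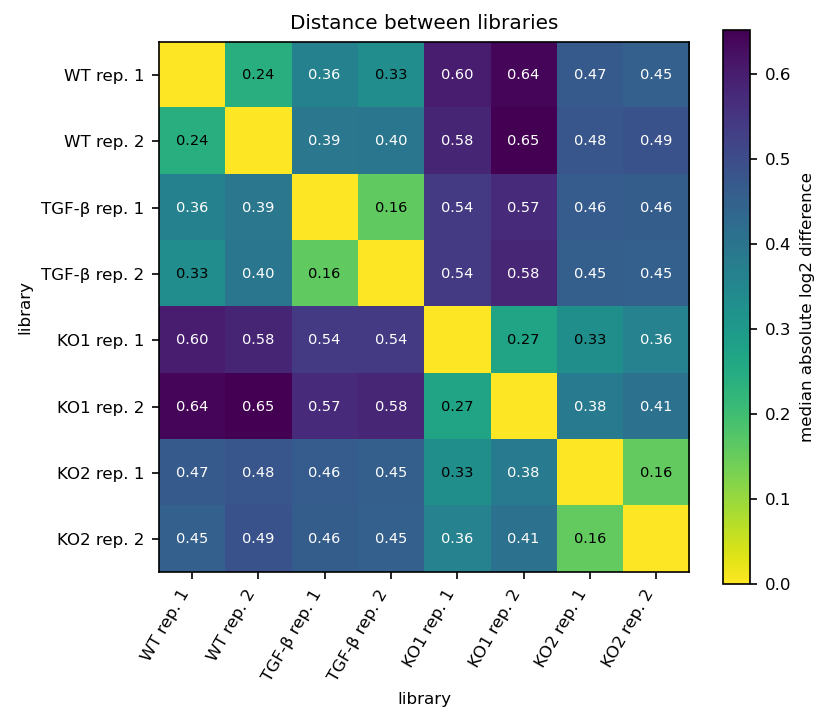
Median absolute log2 difference between each pair of the 8 libraries over 8255 genes, coloured from yellow at 0 to dark at the largest difference, with the value in each cell. Replicates of a group are the closest pairs, and the pairs of a KO clone with a TGF-β library are farther apart than those of KO1 with KO2.

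**Figure D2:**
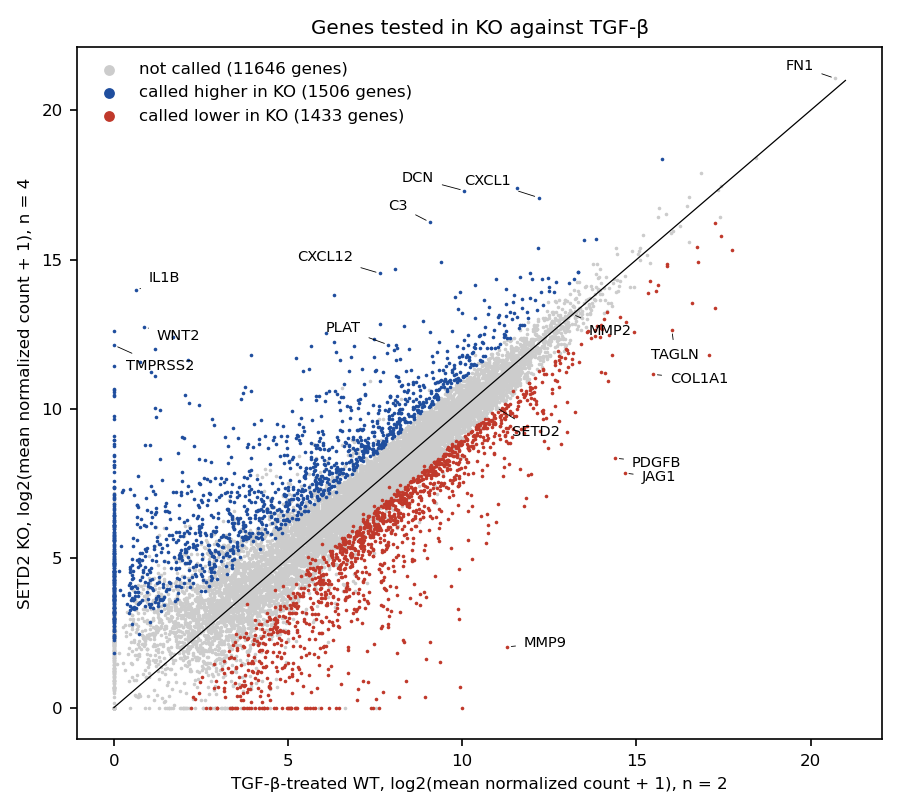
Each tested gene by its mean level in the 2 TGF-β libraries (x axis) and in the 4 KO libraries (y axis), both as log2(mean normalized count + 1), with genes called higher in blue, genes called lower in red, the others in grey and a line at equal levels. IL1B, CXCL1, C3 and DCN lie above the line, JAG1, COL1A1, TAGLN and MMP9 below it, and FN1 and MMP2 close to it.

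The genes with the largest excess in KO were mostly genes at or near 0 in the TGF-β-treated cells. IL1B (chr2:112829751-112836816), the inflammatory cytokine, stood at 29431 and 28069 normalized counts in KO1 and 3949 and 2701 in KO2, against 0 and 1.11 after TGF-β. Its log2 difference was 12.70 (SE 0.50, limma adjusted p = 3.9e-11). With 1 read in the treated group, the ratio of the mean counts was 28900, with a counting interval of 5400 to 1190000. Such ratios are of mean counts without a pseudocount, so they differ from the log2 difference and the clone with more counts weighs more. TMPRSS2 (chr21:41464300-41531116), a membrane serine protease, had 5698 and 5416 in KO1 and 3542 and 3355 in KO2 and was 0 in both treated and both WT libraries. All 4 KO libraries held at least 2701 counts of both genes, and the clones were called apart in IL1B but not in TMPRSS2 (limma adjusted p = 0.065).

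Against a floor of 3 reads per library, TMPRSS2 was at least 1410-fold higher in KO and KYNU, the kynureninase of tryptophan breakdown, at least 1960-fold. IL24, a cytokine of the IL-10 family, was at least 470-fold higher. CH25H, the cholesterol 25-hydroxylase, was at least 442-fold higher. The growth factor IGF2 had 4819 and 6332 normalized counts in KO1 and 2809 and 2597 in KO2, with 3 reads in the treated group and a ratio of 3210 (counting interval 886 to 12600). SV2B, a synaptic vesicle gene, and PDPN, the podoplanin of lymphatic and stromal cells, were higher by 10.92 and 10.70 log2 units, with 5 reads and 1 read in the treated group, and PDPN had more in KO2 (4942 and 4447) than in KO1 (1516 and 1279). The olfactory receptor gene OR12D2 and the nuclear gene NACC2 were also among the 12 largest, and NACC2 was 346 in one WT library and 0 in the other. In all, 35 called genes were at 0 in both treated libraries with a KO mean of 100 or more, and 4 were at 0 in all KO libraries with a treated mean of 100 or more.

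The genes with the largest deficit in KO were likewise mostly at or near 0 in the lower group, here the KO clones. CGB8, a chorionic gonadotropin β gene with near-identical copies among which reads may be split, had 991 and 1054 normalized counts after TGF-β and 0 in all KO libraries, at least 330-fold lower. MMP9, the type IV collagenase, had 2364 and 2642 after TGF-β, 0 in both KO1 libraries and 7.45 and 4.93 in KO2. JAG1 (chr20:10637684-10673999), a Notch ligand, had 26724 and 25306 after TGF-β, with 86.6 and 95.5 in KO1 and 336 and 404 in KO2, a log2 difference of −7.14 (SE 0.25, limma adjusted p = 1.1e-11). For each of these genes untreated WT cells also held more transcript than the KO clones, with 9613 and 3668 for JAG1.

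DMKN, the epithelial secreted protein dermokine, was lower, by −9.36 log2 units. DHRS2, a short-chain reductase, and KLHDC8A, a kelch protein, were lower, by −8.65 and −7.93 log2 units, with WT replicates that differed between themselves. The forkhead factor FOXS1, the surface antigen GPA33, the heparan sulfate enzyme HS3ST2, the enamel protein AMTN and the lectin CLEC18B were also among the 12 largest, between −7.28 and −7.71. AMTN showed how uneven the WT reference could be, with 271 and 0 normalized counts in WT, 913 and 1012 after TGF-β and 1.08 to 15.8 in KO.

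The genes of 26 lists were then compared, in an order from the TGF-β pathway outward. Each list is given by its counts of called members and its median log2 difference, beside 10.3% called higher, 9.83% called lower and a median of −0.02 over all genes tested. In an alternative fit the 4 KO libraries were pooled as 1 group, so that the difference between the clones entered the error. Of 141 named genes called, 21 lost their call in it, namely ITGB6, HMGA2, SOX4, LAMA4, ITGA6, COL11A1, CNN1, FZD10, ROR1, GBP1, C1R, FOLR1, SLC3A1, PDZK1, HOXD11, TYMS, RRM2, NUSAP1, SETMAR, EPCAM and MKI67, and the values of these genes should be read clone by clone. For ITGB6, LAMA4, TYMS, RRM2, SETMAR and MKI67 the call was also lost in a fit on the 6 libraries alone.

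**Figure D3:**
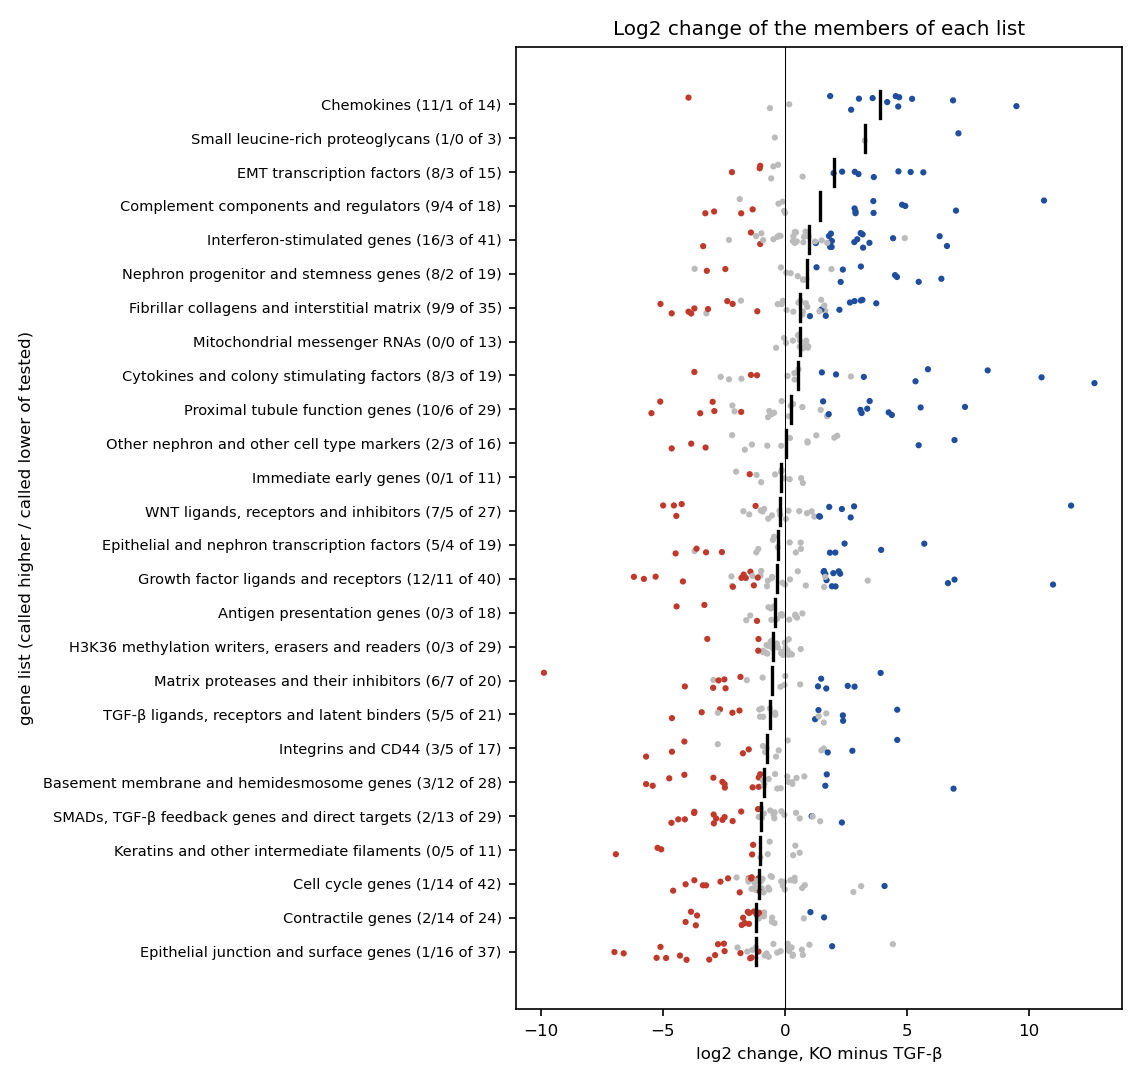
Log2 difference of KO minus TGF-β (x axis) for each tested member of each gene list (y axis, with the numbers called higher and lower of those tested), with members called higher in blue, called lower in red and not called in grey, and a bar at the median of the list. The chemokines have the highest median, 3.90, and the epithelial junction and surface genes the lowest, −1.18.

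The ligands and receptors of the TGF-β pathway moved in both directions. Of 21 tested members 5 were higher and 5 lower, with a median of −0.61. Among the ligands, TGFB2 had 2788 and 2789 normalized counts after TGF-β and 449 to 847 in KO, a log2 difference of −2.15 (SE 0.21, limma adjusted p = 1.2e-06), and TGFB3 was lower, by −2.66 log2 units. TGFB1 differed by −0.95 (SE 0.15, limma adjusted p = 1.1e-04), short of the threshold on size. It passed that threshold in KO2 alone (−1.51), without KO2 replicate 1 (−1.01), with quantile normalization (−1.0) and at the same total (−1.03). With the clones pooled its limma adjusted p was 0.175. The deficit in KO2 (1404 and 1182 against 3618 and 3744) was larger than in KO1 (2790 and 2835). INHBA, the activin A chain, was lower, by −3.41 log2 units, and THBS1, which activates latent TGF-β, by −1.86.

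TGFBR2 (chr3:30606601-30694142), the ligand-binding receptor kinase, had 10168 and 10513 normalized counts in KO1, 9006 and 8891 in KO2 and 3678 and 3729 after TGF-β, a log2 difference of 1.38 (SE 0.04, limma adjusted p = 2.8e-12) with no overlap. The activin receptors ACVR1B and ACVR2A and the coreceptor ENG were also called higher. The integrin chains that activate latent TGF-β split, with ITGB8 higher by 4.61 log2 units and ITGB6 lower, by −4.63 log2 units. The ITGB6 call rested on uneven KO libraries (84.6, 0, 33.3 and 171) and was lost with the clones pooled, in a fit on the 6 libraries alone and without KO1 replicate 2 (−3.03, limma adjusted p = 0.0585).

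SMADs, feedback genes and direct targets were more often lower than higher in KO. Of 29 tested 2 were higher, 13 lower and 14 not called, with a median of −0.98, and the counts were 2 and 13 in KO1 and 1 and 14 in KO2. TGFBI, a secreted matrix adapter named for its induction by TGF-β, had 7935 and 8580 after TGF-β, with 86.3 and 277 in KO1 and 999 and 1039 in KO2, a log2 difference of −4.37 (SE 0.67, limma adjusted p = 1.1e-04). No KO library overlapped the treated ones.

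The metalloprotease ADAM19 and the cytokine IL11 were lower, by −3.72 and −3.71 log2 units. The feedback inhibitors PMEPA1 and BAMBI, the BMP targets ID1 and ID3 and the oxidase NOX4 were among the other members called lower. SMAD7, the inhibitory SMAD, differed by −0.86 (limma adjusted p = 2.3e-04) and did not reach the threshold on size. With the clones pooled its limma adjusted p was 0.201. SMAD3, the signal transducer, was the opposite, with 728, 742, 589 and 470 normalized counts in KO against 156 and 95.5 after TGF-β, a difference of 2.34. The chromatin factor HMGA2 was the other member called higher, by 1.1, a call that was lost with the clones pooled.

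Transcription factors of the EMT were found on both sides. Of 15 tested, 8 were higher and 3 lower, with a median of 2.00. Without KO1 replicate 1 the lower count was 1, and among genes with a mean of at least 50 the higher count was 5 and the median 0.23. ZEB2 (chr2:144364364-144521057), a repressor of CDH1, had 2029 and 2044 normalized counts in KO1, 2236 and 2280 in KO2 and 365 and 483 after TGF-β, a log2 difference of 2.35 (SE 0.11, limma adjusted p = 1.7e-10). POU2F2, also called OCT2, stood at 3442 and 3256 in KO1 and 2065 and 1617 in KO2 against 53.2 and 41.8, a difference of 5.68. PRRX1, a mesenchymal homeobox factor, was 0 in both treated and both WT libraries and 37.5, 8.98, 34.8 and 28.4 in KO, at least 8.58-fold higher but low throughout.

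TBX3, FOXF2, TBX2, TCF4 and TWIST2, factors of mesenchymal development, were the other members called higher, TBX3 by 5.16 and FOXF2 by 3.65. ZEB1 was not among them. It had 988 and 1072 normalized counts after TGF-β and 633 to 728 in KO, a log2 difference of −0.56 (SE 0.08, limma adjusted p = 3.6e-05), so the paralogs ZEB1 and ZEB2 differed in opposite directions. SNAI2 was low in all libraries (15.3 to 29.5 in KO, 43 and 17.3 after TGF-β), with a difference of −0.47 and a 95% interval of −1.21 to 0.27. Without TGF-β replicate 2 it was called lower (−1.1, limma adjusted p = 0.0398), and without TGF-β replicate 1 its difference was 0.17. FOXC2, ETS1 and SOX4, which are each linked to EMT, were called lower, by −2.17, −1.03 and −1.01 log2 units. Of the 24 factors listed 17 had values and 15 were tested, and TWIST1 was among those not tested.

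Epithelial and nephron transcription factors also split, with 5 higher and 4 lower of 19 tested and a median of −0.29. The median had no stable sign, with 0.32 without KO1 replicate 2, 0.15 without TGF-β replicate 1, −0.06 without KO2 replicate 1 and 0.45 among genes with a mean of at least 50. With the clones pooled 2 were lower. The epithelial ETS factors EHF and ELF3 were higher by 3.95 and 2.07 log2 units, and PAX8 by 1.85. PAX8 had 6382 and 6561 normalized counts in KO1, 5056 and 5096 in KO2 and 1634 and 1535 after TGF-β (SE 0.12, limma adjusted p = 1.6e-08), above WT as well. ESRP2, the splicing regulator of epithelial isoforms, was lower, by −3.62 log2 units, and LHX1, a factor of the early nephron, was called lower.

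Junction and surface genes of epithelia were more often lower in the KO clones. Of 37 tested, 1 was higher (0 with the clones pooled) and 16 lower, with a median of −1.18. MUC1, the apical mucin, had 283 and 341 normalized counts after TGF-β, with 1.57 and 2.2 in KO1 and 11.5 and 0 in KO2, a log2 difference of −6.61 (SE 0.76, limma adjusted p = 6.3e-06). EPCAM, the epithelial adhesion molecule, had 1605 and 1722 after TGF-β, with 296 and 218 in KO1 and 901 and 838 in KO2, a difference of −1.82. Both genes were higher in untreated WT (493 and 595 for MUC1, 3050 and 2764 for EPCAM), so the KO clones lay farther below WT than the treated cells did in both.

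The junctional adhesion molecule JAM3, the cadherin CDH3 and the claudin CLDN14 were lower, by −6.99, −5.26 and −5.10 log2 units. The desmosome genes DSP, PKP1 and PKP2 and the claudins CLDN2, CLDN4 and CLDN16 were called lower as well. CDH1, E-cadherin, was near 0 in both groups, with 0 and 10.2 after TGF-β and at most 0.776 in KO, and its difference of −1.54 had a 95% interval of −4.52 to 1.44. For CDH2, N-cadherin, the 2 treated libraries were 185 and 0 and the KO libraries 55.1 to 765, so that the interval, −1.73 to 10.59, allowed either direction.

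Of 11 tested keratins and other filament genes 0 were higher and 5 lower, with a median of −1.0 and 3 lower in KO2 alone. KRT81 and KRT7 were lower, by −6.93 and −5.22 log2 units, and KRT17 and KRT80 by −5.07 and −1.34. KRT80 was not called in KO2 alone (−0.97). KRT7, a keratin of simple epithelia, had 1368 and 1933 normalized counts after TGF-β against 24.4 to 59.8 in KO. VIM, vimentin, the filament of mesenchymal cells, had 172961 and 176108 after TGF-β and 72275 to 102935 in KO, a log2 difference of −1.0 (SE 0.06, limma adjusted p = 7.7e-09) that was not called at the threshold on size, and that passed it in KO1 alone (−1.23) and, with values from −1.08 to −1.0, at the same total, with the length and GC correction (with or without the replicate block), and without KO1 replicate 1, KO2 replicate 1 or TGF-β replicate 1. KRT18, a keratin of simple epithelia, overlapped between the groups, with 191 and 146 after TGF-β and 388, 198, 199 and 130 in KO.

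Basement membrane genes were more often lower than higher in KO. Of 28 tested genes of basement membrane and hemidesmosome 3 were higher and 12 lower, with a median of −0.85. ITGB4, a hemidesmosome integrin chain, had 4409 and 3211 normalized counts after TGF-β, with 233 and 153 in KO1 and 199 and 300 in KO2, a log2 difference of −4.12 (SE 0.27, limma adjusted p = 1.4e-08). Its partner ITGA6 was lower, by −5.69 log2 units, and here the clones differed, since it was 0 in both KO1 libraries and 331 and 342 in KO2, against 934 and 956 after TGF-β. LAMA3, LAMA5 and LAMB1 were called lower, but LAMB3, another laminin chain, was higher by 1.72 log2 units. COL4A1, the main basement membrane collagen, was lower, by −4.74 log2 units with uneven WT replicates (5934 and 125). NID2, a nidogen that links laminin to collagen, was higher by 6.92 log2 units from 3 reads in the treated group. LAMA4 was higher by 1.66, from 162 and 50.4 after TGF-β and 237 to 421 in KO, with WT above both (676 and 742), and its difference was 0.83 (limma adjusted p = 0.241) without TGF-β replicate 2.

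Interstitial matrix genes were split evenly, with 9 higher and 9 lower of 35 tested and a median of 0.64, and 7 and 4 among genes with a mean of at least 50. COL1A1 (chr17:50184101-50201632) had 46598 and 45007 normalized counts after TGF-β, with 1042 and 815 in KO1 and 3751 and 3520 in KO2, a log2 difference of −4.64 (SE 0.75, limma adjusted p = 1.6e-04). COL5A1, a chain of type V collagen that is built into the same fibrils, was the reverse, with 1873, 1925, 3155 and 3027 in KO against 200 and 162, a difference of 3.75. These chains of associated collagens thus differed in opposite directions.

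COL16A1, THBS2 and COL12A1 were higher by 3.18, 2.86 and 1.5 log2 units, and COL6A3, COL8A1, CTHRC1, FBLN5 and POSTN were called higher too. The glycoproteins TNC and SPARC were lower, by −3.15 and −3.71 log2 units, and COL11A1 by −5.10, a call that was lost with the clones pooled. FN1 (chr2:215360440-215436073), fibronectin, was the most counted gene of the 6 libraries, with 1719613 and 1710471 normalized counts after TGF-β, with 2330092 and 2537590 in KO1 and 1958267 and 1958182 in KO2. All KO libraries were higher, but the log2 difference of 0.35 had an adjusted p of 0.44 in limma. Its 95% interval of −0.34 to 1.03 spans 0 and reaches past the threshold on size. The limma adjusted p was 0.0548 in a fit on the 6 libraries alone and 0.754 with the clones pooled.

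DCN (chr12:91140484-91183217), decorin, a small proteoglycan that coats collagen fibrils and binds TGF-β, set the groups apart more than any collagen. It had 234809 and 221606 normalized counts in KO1, 98373 and 94978 in KO2 and 1049 and 1083 after TGF-β, a log2 difference of 7.12 (SE 0.15, limma adjusted p = 4.5e-14). Only 3 of the 11 small leucine-rich proteoglycans in the table had counts enough to be tested, with a median of 3.28. DCN was the single member called, against 2 with the clones pooled.

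The contractile genes were more often lower than higher in the KO clones, with 2 higher, 14 lower and 8 not called of 24 tested and a median of −1.17. TAGLN, transgelin, had 62984 and 69767 normalized counts after TGF-β, with 3074 and 2491 in KO1 and 10076 and 10103 in KO2, a log2 difference of −3.65 (SE 0.39, limma adjusted p = 3.2e-06). MYL9, a myosin light chain, and PDLIM7, an actin-linked adapter, were lower, by −4.07 and −1.77 log2 units. CNN1, calponin, was lower, by −3.60 log2 units with 44.1 in KO1 replicate 2 against 2.67 to 5.33 in the other KO libraries, and its call was lost with the clones pooled.

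ACTA2, smooth muscle α-actin, which marks myofibroblasts, did not follow the contractile list. It had 739 and 731 normalized counts in KO1, 1140 and 1094 in KO2, 306 and 287 after TGF-β and 310 and 308 in untreated WT. The log2 difference of 1.61 (SE 0.10, limma adjusted p = 4.5e-09) was an excess in both clones over cells in which TGF-β had left the level where it was in WT. MYLK, the kinase of the myosin light chain, was the other member higher, by 1.05, with untreated WT (9664 and 14132) above both groups. MYLK was not called in KO1 alone (0.74).

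**Figure D4:**
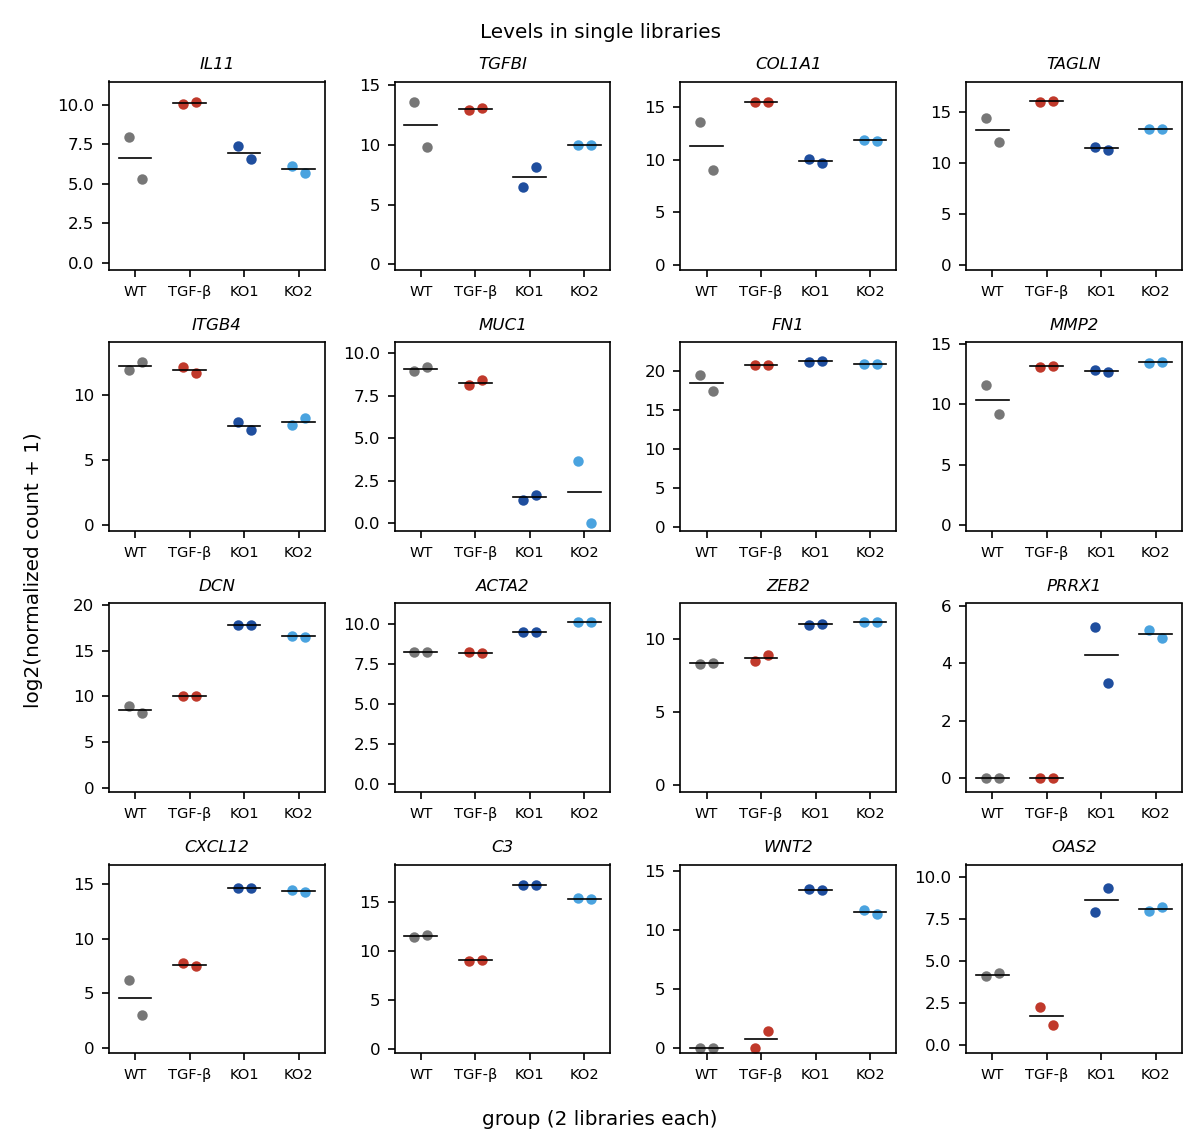
Levels of 16 genes in each of the 8 libraries, in log2(normalized count + 1), with a line at the mean of each group of 2 replicates. IL11, COL1A1 and TAGLN are highest after TGF-β, DCN, CXCL12, C3 and WNT2 are highest in both KO clones, and FN1 and MMP2 sit at similar heights in the treated cells and the clones.

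Proteases of the matrix and their inhibitors were called in both directions, with 6 higher and 7 lower of 20 tested and a median of −0.54. Without TGF-β replicate 2 the lower count was 4, and the median was −1.13 when KO1 replicate 1 was left out, −0.34 when KO1 replicate 2 was and −0.89 when KO2 replicate 2 was. PLAT, the tissue plasminogen activator, had 7722 and 6920 normalized counts in KO1, 1810 and 1685 in KO2 and 225 and 243 after TGF-β, a log2 difference of 3.93 (SE 0.11, limma adjusted p = 6.1e-13). Its inhibitor SERPINE2 was lower, by −2.72 log2 units, and PLAU, the urokinase, was called lower. TIMP2 and TIMP1, inhibitors of the metalloproteases, were higher by 2.58 and 1.70 log2 units.

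MMP2 (chr16:55389700-55506691), the gelatinase of mesenchymal cells, did not separate the groups. It had 8980 and 9138 normalized counts after TGF-β, with 7391 and 6643 in KO1 and 11327 and 11856 in KO2, with the treated libraries between the clones. The log2 difference was −0.01 with a 95% interval of −0.85 to 0.83 and a limma adjusted p of 0.994. Its sign changed with the setting, and was 0.03 without KO1 replicate 2.

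Among the integrins and CD44, 3 of 17 were higher and 5 lower, with a median of −0.75 that was −0.30 without KO1 replicate 2 and −0.40 without KO2 replicate 2 or TGF-β replicate 1. In the pooled fit 3 were lower. CD44, the hyaluronan receptor, had 66862 and 71305 normalized counts in KO1, 38565 and 32523 in KO2 and 14985 and 14260 after TGF-β, a log2 difference of 1.76. ITGA1, a collagen-binding chain, was higher by 2.77 log2 units, and ITGB3, of the vitronectin receptor, was lower, by −1.72 log2 units.

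WNT genes were called in both directions, with 7 higher and 5 lower of 27 tested and a median of −0.19, and 5 and 2 with the clones pooled. Without KO1 replicate 2 they were 6 and 6, with a median of 0.0, and without KO1 replicate 1 the median was −0.30. WNT2 (chr7:117275451-117323152), a canonical ligand, had 11257 and 10348 normalized counts in KO1, 3191 and 2595 in KO2, 0 and 1.65 after TGF-β and 0 in both WT libraries, a log2 difference of 11.74 (SE 0.33, limma adjusted p = 6.8e-13). WNT5A, a non-canonical ligand, had 20323 and 23575 in KO1 and 11621 and 10990 in KO2 against 2330 and 2519, a difference of 2.70. Each clone exceeded the treated cells in both ligands.

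AXIN2, a feedback target of canonical WNT signaling, was higher by 2.34 log2 units and the secreted DKK3 by 1.44. WNT7A, an epithelial ligand, was lower, by −4.99 log2 units, and the receptor FZD10 by −4.45. ROR1, a receptor of WNT5A, was 0 in both KO1 libraries, 242 and 230 in KO2 and 267 and 312 after TGF-β, so its call rested on KO1. WNT5B was lower, by −1.20 log2 units, and was not called in KO1 alone (−0.84, limma adjusted p = 0.0682).

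Chemokines were the list with the highest share called higher. Of 14 tested 11 were higher and 1 lower, with a median of 3.90, and the counts were 11 and 1 in each clone. CXCL12 (chr10:44370165-44386493), the ligand of CXCR4, had 25801 and 26440 normalized counts in KO1, 22547 and 20462 in KO2 and 215 and 182 after TGF-β, a log2 difference of 6.90 (SE 0.54, limma adjusted p = 9.5e-08). CXCL1, a neutrophil chemoattractant, had 209253 and 212269 in KO1, 73071 and 58364 in KO2 and 4289 and 5083 after TGF-β, a difference of 4.65. No KO library overlapped the treated ones in either gene.

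CCL20, the ligand of CCR6, was higher by 9.50 log2 units, with a ratio of 941 and a counting interval of 455 to 2700 on 6 reads in the treated group, and CXCL3 by 4.69. CXCL2, CXCL6, CXCL8, CXCL14 and CCL2 and the receptors CXCR4 and ACKR3 were also called higher. The transmembrane chemokine CXCL16 was the member called lower, and 0 were lower with the clones pooled, in a fit on the 6 libraries alone or without either TGF-β replicate. The summed normalized counts of the list were 8348 and 8944 after TGF-β, with 270070 and 271336 in KO1 and 112429 and 93306 in KO2.

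Cytokines and colony stimulating factors had 8 higher and 3 lower of 19 tested and a median of 0.56. In the pooled fit 5 were higher, and without TGF-β replicate 1 the median was 1.04. CSF3, the granulocyte factor, was 0 in both treated and both WT libraries, 842 and 912 in KO1 and 153 and 86.1 in KO2, at least 156-fold higher in KO. IL1A had 6911 and 6150 normalized counts in KO1 and 3522 and 2980 in KO2 against 67.1 and 89.6, a log2 difference of 5.87 (SE 0.16, limma adjusted p = 6.4e-13). IL6, IL33, IL10 and the B cell factor TNFSF13B were called higher with IL1B and IL24. IL11, IL32 and IL15 were lower, IL32 by −1.39 and IL15 by −1.14.

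Growth factor ligands and receptors were divided, with 12 higher and 11 lower of 40 tested and a median of −0.31. The median was −0.12 without KO1 replicate 1, −0.09 without KO2 replicate 2 and −0.13 without TGF-β replicate 2, when 8 were higher. PDGFB, a ligand that acts on fibroblasts and pericytes, had 21424 and 21561 normalized counts after TGF-β, with 286 and 132 in KO1 and 403 and 483 in KO2, a log2 difference of −6.19 (SE 0.26, limma adjusted p = 8.6e-11). FGF1 was lower, by −5.30 log2 units and FGF5 by −2.13, and PDGFA, PDGFC and HBEGF were called lower. BMP4 and its antagonist NOG were higher by 6.69 and 2.21 log2 units, and KDR was at least 38.9-fold higher. GLI2, a hedgehog effector, was lower, by −1.78 log2 units while SHH and its receptor PTCH1 were called higher. For PDGFB, FGF1, BMP4 and NOG all 4 KO libraries lay on the same side of both treated ones.

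Complement genes were called in both directions, with 9 higher and 4 lower of 18 tested and a median of 1.44, and 6 and 2 with the clones pooled. The excess depended on the filter, since among genes with a mean of at least 50 there were 5 higher and 3 lower with a median of −0.03, and with no filter the median was 0.01. C3 (chr19:6677704-6730562), the central component, had 113247 and 113316 normalized counts in KO1, 44554 and 41316 in KO2, 521 and 554 after TGF-β and 2747 and 3286 in WT. The log2 difference was 7.02 (SE 0.11, limma adjusted p = 2.5e-15). C1R and C1S, the proteases of the first component, and CFB were called higher, while CLU, an inhibitor of the terminal complex, and CFI were lower, by −3.26 and −1.32 log2 units.

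Interferon-stimulated genes had 16 higher and 3 lower of 41 tested and a median of 0.98, with 18 higher in KO1 and 12 in KO2. With the clones pooled the counts were 12 and 1, without TGF-β replicate 2 they were 14 and 1, and the median was 0.61 without TGF-β replicate 1. OAS2, a sensor of double-stranded RNA, had 16.5 and 18.3 normalized counts in WT, 3.84 and 1.31 after TGF-β, with 244 and 664 in KO1 and 252 and 304 in KO2, a log2 difference of 6.65 (SE 0.44, limma adjusted p = 1.5e-08) on 5 reads in the treated group. The KO libraries lay above both WT states. IFI27 and IFI6 were higher by 6.35 and 3.47 log2 units and EPSTI1 by 3.19, whereas GBP1 and IRF1 were lower, by −1.39 and −1.01 log2 units. IRF1 was not called in KO1 alone (−0.83).

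Genes of antigen presentation did not follow. Of 18 tested 0 were called higher by limma and 3 lower, with a median of −0.39 (−0.59 without KO1 replicate 2), and 8 had an interval wholly within 1 log2 unit of 0. CD74, the invariant chain of class II molecules, had 2101 and 2111 normalized counts after TGF-β and 47.2 to 204 in KO, a log2 difference of −4.44. TAP1, a peptide transporter, was lower, by −1.14 log2 units, a call that was lost without KO1 replicate 2 (−0.9), as was that of IRF1 (−0.91).

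Genes of proximal tubule function were called in both directions, with 10 higher and 6 lower of 29 tested and a median of 0.24. With the clones pooled the counts were 10 and 1, and without KO1 replicate 2 they were 10 and 7 with a median of 0.13. The median was 0.48 without TGF-β replicate 1 and 1.47 among genes with a mean of at least 50. CA12, a membrane carbonic anhydrase, had 8084 and 8348 normalized counts in KO1, 814 and 569 in KO2 and 40 and 59.6 after TGF-β, a log2 difference of 5.57. AQP9 and DPP4, a channel and a brush border peptidase, were higher by 7.39 and 4.26 log2 units, and ASS1, the argininosuccinate synthase, by 3.48. The water channel AQP1, the best known of the list, was lower, by −5.11 log2 units with 432 and 448 after TGF-β against 6.39 to 19.1 in KO.

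The folate receptor FOLR1, the amino acid transporter chain SLC3A1 and the scaffold PDZK1 were lower, by −5.47, −3.47 and −1.79 log2 units, and each had a larger deficit in KO1. FOLR1 was 0 in both KO1 libraries and 40.7 and 61.5 in KO2 against 334 and 298, and PDZK1 was 36.7 and 42.6 in KO1 and 330 and 389 in KO2 against 412 and 423. These 3 calls were lost with the clones pooled.

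Genes of the cell cycle were more often lower than higher in KO, and unevenly across the clones. Of 42 tested 1 was higher and 14 lower, with a median of −1.06, and the lower count was 18 in KO1 and 6 in KO2. With the clones pooled 2 were lower, in a fit on the 6 libraries alone 9 were, and without KO1 replicate 2 the lower count was 19. CENPE, a mitotic kinesin, had 366 and 408 normalized counts after TGF-β, with 16.1 and 24.8 in KO1 and 52 and 85.6 in KO2, a log2 difference of −3.36 (SE 0.20, limma adjusted p = 3.9e-09).

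MKI67, the Ki-67 antigen of dividing cells, had 959 and 859 normalized counts after TGF-β, with 202 and 67.2 in KO1 and 264 and 1105 in KO2. Its log2 difference of −1.85 (SE 0.45, limma adjusted p = 0.00485) came with an overlap, since KO2 replicate 2 was above both treated libraries, and untreated WT was far above all of them (4088 and 6581). TYMS, RRM2 and NUSAP1, genes of nucleotide supply and of the spindle, were lower, by −4.58, −3.23 and −1.48 log2 units, and TYMS and RRM2 were at 0 in some KO libraries. CDKN1C, an inhibitor of cyclin-dependent kinases, was the member higher, by 4.09.

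The mRNAs encoded by mitochondrial DNA were measured as a sign of RNA composition. Their 13 genes summed to 1071861 and 1065645 normalized counts after TGF-β, with 1628188 and 1782261 in KO1 and 1190103 and 1182744 in KO2. By limma 0 of 13 were called in the mean of the clones, with a median of 0.61, and 6 were called higher in KO1. KO1, with the larger excess, also had more genes called against the treated cells than KO2, and the part of the mitochondrial share in that was not tested.

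Untreated WT cells, which are in neither group of the comparison, show on which side a difference lay. WT was nearer to the TGF-β-treated cells in 1125 of the 1506 genes called higher (74.7%) and in 1055 of the 1433 called lower (73.6%), so that most calls were genes in which the KO clones stood away from both WT states. Set at 0 for the treated mean and at 1 for the KO mean, the median WT place was 0.147 for genes called higher and 0.219 for those called lower. In 435 of the genes called higher and 452 of those called lower WT lay beyond the treated cells, and in 99 and 71 beyond the KO clones. The first WT replicate alone gave 1118 and 1152 genes nearer to the treated cells and the second 1076 and 985. Differences of both groups from WT share the WT libraries, and no test was made of this placement.

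**Figure D5:**
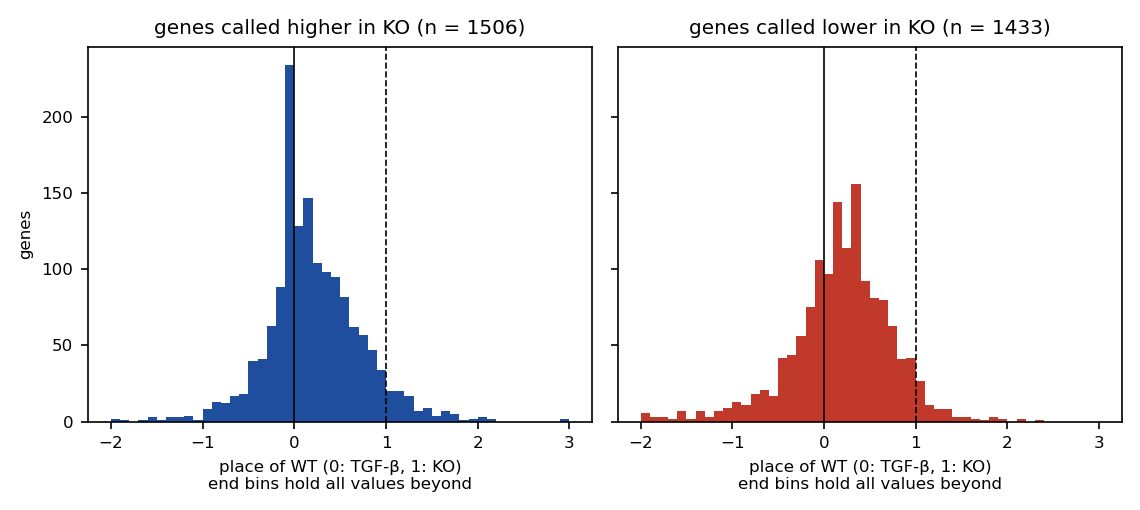
Number of genes (y axis) by the place of the untreated WT mean on the log2 scale (x axis, 0 for the TGF-β mean at the solid line and 1 for the KO mean at the dashed line), for the 1506 genes called higher and the 1433 called lower in KO, with the end bins holding all values beyond. Both histograms have their bulk near the solid line, with 99 and 71 genes past the dashed one.

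Features of the called genes that the comparison did not use were compared without a test. Protein-coding genes made up 90.7% of the genes called higher, 88.6% of those called lower and 89.2% of all tested. The coding genes called higher were longer, with a median of 51.4 kb, against 41.5 kb for those called lower and 36.6 kb for all tested, whereas the median GC content of their transcripts was 48.7%, 49.6% and 48%. Chromosome 19 held few genes called higher, 4.52% of its 995 tested genes against 12.5% called lower.

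Promoters were searched for CAGAC, the letters of a SMAD-binding element, and TGACTCA, those of an AP-1 element, on both strands. RefSeq windows of 300 bases on GRCh38.p14, from 250 bases before to 50 bases after a start site, matched 1027 of the genes called higher, 1010 of those called lower and 10430 of those tested. CAGAC was found in 45.2% of the windows of genes called higher, 46.8% of those called lower, 44.1% of those tested and 45.3% of all windows. TGACTCA was in 5.07%, 4.15%, 3.7% and 4.95%. The SMAD target list had CAGAC in 55.6% and TGACTCA in 8.89% of 45 windows of 25 genes. The chemokines had CAGAC in 5 and TGACTCA in 2 of 13 windows of 10 genes. A match of letters is a description and not a binding site.

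The windows of 4 genes that were called in opposite directions are shown with the searched letters in capitals on either strand, IL11 and AMTN from the genes lower in KO and WNT2 and CXCL1 from those higher. Where the capitals read GTCTG or TGAGTCA, the letters are on the opposite strand.
IL11 (chr19:55370414-55370713, minus strand): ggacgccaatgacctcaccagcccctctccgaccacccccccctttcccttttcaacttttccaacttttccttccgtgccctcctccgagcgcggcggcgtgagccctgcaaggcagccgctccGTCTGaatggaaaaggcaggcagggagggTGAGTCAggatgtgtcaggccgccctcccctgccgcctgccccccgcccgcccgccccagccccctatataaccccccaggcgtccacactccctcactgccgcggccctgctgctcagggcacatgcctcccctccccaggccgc
AMTN (chr4:70518319-70518618, plus strand): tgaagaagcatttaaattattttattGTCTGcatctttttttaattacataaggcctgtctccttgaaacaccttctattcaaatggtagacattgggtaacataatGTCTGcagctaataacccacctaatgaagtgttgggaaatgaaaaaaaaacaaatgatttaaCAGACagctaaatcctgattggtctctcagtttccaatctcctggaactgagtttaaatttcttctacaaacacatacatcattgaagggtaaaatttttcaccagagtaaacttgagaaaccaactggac
WNT2 (chr7:117323009-117323308, minus strand): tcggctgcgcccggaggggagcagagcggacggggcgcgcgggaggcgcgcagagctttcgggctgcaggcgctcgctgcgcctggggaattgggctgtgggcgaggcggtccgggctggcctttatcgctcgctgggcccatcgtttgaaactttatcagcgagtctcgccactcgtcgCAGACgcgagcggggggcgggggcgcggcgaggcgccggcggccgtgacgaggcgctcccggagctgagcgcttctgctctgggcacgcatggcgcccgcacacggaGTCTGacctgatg
CXCL1 (chr4:73869143-73869442, plus strand): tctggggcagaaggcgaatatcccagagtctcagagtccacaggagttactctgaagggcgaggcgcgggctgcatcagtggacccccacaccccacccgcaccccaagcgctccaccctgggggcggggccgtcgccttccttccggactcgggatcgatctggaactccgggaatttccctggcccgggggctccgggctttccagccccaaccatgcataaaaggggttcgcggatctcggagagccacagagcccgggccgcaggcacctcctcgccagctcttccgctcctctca
IL11, with 1096 and 1183 normalized counts after TGF-β against 50.3 to 167 in KO, had 1 CAGAC and 1 TGACTCA in its window. AMTN had 3 CAGAC and WNT2, which is higher in KO, had 2. CXCL1 had neither, so the letters did not divide these 4 genes by their direction.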

How the data were processed

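RNA-seq libraries of 11 groups in 2 replicates each were available as 1 table of 36859 Ensembl genes. The authors quantified reads with Salmon against the Ensembl 94 transcripts of GRCh38 and used DESeq2. The versions, 1.9.0 and 1.26.0, are from the submitters' processing notes. The deposited values are on a log2 scale and share a lowest value of 11.32, and the transformation is not given in the sources used here. They have the form of the parametric variance-stabilizing transformation of that package, which compresses differences of low genes. That form was inverted, with its 1 constant taken from the shared lowest value, which stands for 0. The resulting normalized counts fell in whole steps per library at low values, and the step gave the approximate number of reads. All normalized counts and reads rest on this inversion. All columns were mapped by name, and 0 were left out.

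The test kept genes that reached 10 normalized counts in 2 or more libraries. It was made on log2(normalized count + 1) with limma 3.58.1 (R 4.3.3, trend) in 1 fit of all 22 libraries, with Benjamini-Hochberg adjustment over the 14585 genes tested. The contrast was the mean of KO1 and KO2 minus TGF-β. Intervals are unadjusted 95% intervals of that fit. An exact permutation test of 4 against 2 libraries cannot go below p = 0.0667 and was not used. No count model was run, because the deposited values are on a log2 scale and the reads come from the inversion. At values near 0 the floor was 3 reads per library, and ratio intervals cover counting error only. Ratios and folds against the floor use the mean counts of a group, without a pseudocount. The script was tested on simulated data.

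Named genes were SETD2, the 12 largest differences in each direction among called protein-coding genes with 100 or more normalized counts in the higher group and no overlap, up to 4 such members per list and direction, and members that define a list. A few genes that the rule names are not reported here, although the list counts include them. Other members given as called are named from the lists of called genes. The groups compared, the gene lists and the markers were chosen with earlier results of these data known, so no list is independent evidence and no list was tested. Replicate numbers did not pair the libraries. Gene positions are from GENCODE release 44 on GRCh38, with 33878 genes matched, and promoters from RefSeq. Alternatives were other pseudocounts, filters, scalings, errors and single libraries left out.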

Additional observations from a re-analysis of the deposited data

Results flagged for a closer look

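Of 153 named genes, those with a KO mean of at least 10 normalized counts were examined for a KO library apart from the other 3. In 4 genes Dixon's ratio of gap to range was past its 95% critical value. The ratio does not measure the size of the gap. The ratio was 0.833 for SPARC (45.8 normalized counts in KO1 replicate 2 against 9.4 to 12.4), 0.882 for SETMAR (65.6 in KO1 replicate 1 against 118 to 128), 0.93 for SETD2 (1130 in KO1 replicate 2 against 1046 to 1052) and 0.912 for ZEB1 (633 in KO1 replicate 1 against 719 to 728). Chance alone marks about 1 in 20 groups, so 4 marks are no excess. All 4 marked libraries were of KO1.

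The difference from TGF-β was itself different between the clones in 40 of the 151 named genes tested. This is by the limma contrast of KO1 with KO2, the same as comparing the clones directly. Over all 14585 genes tested that contrast called 2.48% higher and 4.49% lower in KO1. Most named genes were chosen for large differences from TGF-β, so their share is not that of a neutral set. These calls rest on the spread shared with the other libraries, since a fit on the 4 KO libraries alone called 1 gene of the whole table. Values here are log2 differences of KO1 minus KO2. Among genes higher in both clones, KO1 was above KO2 for IL1B (3.14), CSF3 (2.92), IFI27 (2.64), CXCL1 (1.69), CXCL3 (1.56), C3 (1.40) and IL1A (1.01). The same held for CA12 (3.59), PLAT (2.06), WNT2 (1.91), DCN (1.24) and LAMB3 (1.17). HMGA2 (1.20) and HOXD11 (1.02) were called higher than after TGF-β in KO1 but not in KO2. PDPN, THY1 and FOXF2 were higher in both clones and more so in KO2, with values of −1.75, −2.75 and −1.60.

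Among genes lower in KO, a deeper deficit was found in KO1 for ITGA6 (−8.40), ROR1 (−7.89), FOLR1 (−5.67), SLC3A1 (−5.14), FZD10 (−3.17), PDZK1 (−3.15), MMP9 (−2.82) and TGFBI (−2.71), of which ITGA6, ROR1, FOLR1 and MMP9 were at 0 in both KO1 libraries. It was also deeper in KO1 for WNT7A (−2.34), MKI67 (−2.20), ADAM19 (−2.18), JAG1 (−2.01), FGF1 (−2.0), TAGLN (−1.87), EPCAM (−1.77), CENPE (−1.69) and SOX4 (−1.46), and for NUSAP1 (−1.20), PDGFB (−1.18) and ESRP2 (−1.09). Of these genes SOX4, ROR1, SLC3A1, PDZK1, NUSAP1, EPCAM and MKI67 were not called lower in KO2. KO2 had the deeper deficit for CD74 (1.55), and TGFB1 (1.13) and SMAD7 (1.03) were called lower in KO2 but not in KO1. Which of these differences belong to the clone and which to the single libraries was not tested, and KO1 replicate 2 had more genes at 0 than its partner.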

How the results depend on the processing

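All 141 called named genes kept their direction under every alternative, and 114 stayed called under every one except the deposited values and the fold threshold. The kept direction was largely fixed by the choice of genes. Most were chosen for no overlap between the groups, so leaving out a library, using 1 clone or pooling the clones could not turn their sign. With the clones pooled 21 of the 141 lost their call, and in a fit on the 6 libraries alone 6 did. Leaving out single libraries ended the calls of ETS1, SOX4, CNN1 and SETMAR (KO1 replicate 1), ITGB6, IRF1 and TAP1 (KO1 replicate 2), ITGB6, SOX4 and CNN1 (KO2 replicate 1), MYLK, CNN1, IRF1 and RRM2 (KO2 replicate 2), ITGB6, SOX4, CNN1, TAP1 and RRM2 (TGF-β replicate 1), and ITGB6, LAMA4, COL11A1, CNN1, IRF1, TYMS, RRM2 and SETMAR (TGF-β replicate 2). MYLK also lost its call with quantile normalization and at the same total, IRF1 with the length and GC correction (−0.87, with or without the block) and CNN1 with no filter (adjusted p = 0.0624). Replicate numbers did not pair the libraries (r = 0.03 for KO1 with KO2, −0.04 for KO1 with TGF-β and 0.06 for KO2 with TGF-β). A replicate block gave 1489 genes higher and 1421 lower and changed no named call.

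Some counts moved by more than 1.5 times. KO against TGF-β had 910 genes higher among the 9819 with a mean of at least 50, 756 lower with the clones pooled, 924 higher and 692 lower beyond a log2 difference of 2, and 86 and 48 on the deposited values, whose compressed scale shortens differences of low genes. For KO1 these were 1028 higher at the mean of at least 50, 959 and 930 beyond 2, and 120 and 63 on the deposited values. For KO2 they were 870 higher, 875 and 516, and 70 and 46. The count between KO1 and KO2 fell from 1016 to 1 in a fit on the 4 KO libraries alone, which have few degrees of freedom.

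Leaving out 1 replicate at a time gave 1264 to 1541 genes higher and 1107 to 1690 lower for KO, 1368 to 1622 and 1413 to 2077 for KO1, 1119 to 1204 and 861 to 952 for KO2, and 642 to 1745 between the clones. Scaling all libraries to the same total moved the median of all genes to −0.10, with 1358 higher and 1563 lower.

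Named genes that changed sign (CDH1, SNAI2, MMP2 and FN1) were not called with all libraries, and SNAI2 gained a call, lower, without TGF-β replicate 2 (adjusted p = 0.0398). With 1 replicate left out, the log2 difference ranged from −3.28 to 0.21 for CDH1 (the latter without TGF-β replicate 2), from −1.1 to 0.17 for SNAI2 (the latter without TGF-β replicate 1) and from −0.05 to 0.03 for MMP2. That of FN1 was −0.0 with quantile normalization. For MMP2 it was 0.36 in KO2 alone, 0.0 on the deposited values and 0.12 with a length and GC correction, with or without the replicate block. With 2 replicates a group and 12400000 to 19000000 reads a library, differences of genes near 0 were known to within several log2 units, and the causes of these changes were not tested.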

Other observations

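Genes of nephron progenitors and stemness were more often higher in KO than after TGF-β, with 8 higher and 2 lower of 19 tested and a median of 0.89. Without TGF-β replicate 2 the lower count was 1 and the median 0.56, and with the clones pooled 6 were higher and 1 lower. SALL1, a zinc finger factor of the nephron progenitor, had 5564 and 5430 normalized counts in KO1, 4987 and 4467 in KO2 and 1159 and 941 after TGF-β, a log2 difference of 2.29 (SE 0.14, limma adjusted p = 4.6e-09). GDNF, which guides the ureteric bud, and THY1, a surface glycoprotein of stromal cells, were higher with log2 differences of 6.42 and 5.49, although 1 treated library held 38.9 counts of GDNF and the other 0. MYC was lower, with 1162 and 1251 after TGF-β and 92.1 to 206 in KO, a log2 difference of −3.20.

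Of 29 writers, erasers and readers of H3K36 methylation 0 were called higher by limma and 3 lower, near the 9.83% of all genes. The median was −0.48, and 16 had an interval within 1 log2 unit of 0. The lower count was 1 without TGF-β replicate 2, with the clones pooled and in KO2 alone. DNMT3B, a DNA methyltransferase that reads the mark, was lower with 1374 and 1428 normalized counts after TGF-β and 636 to 672 in KO, a log2 difference of −1.09. Of 11 immediate early genes, which respond to handling and serum, IER3 was the single member called, with a log2 difference of −1.44. The median of this list was −0.15, with −0.37 without KO1 replicate 2 and −0.02 without KO1 replicate 1. Its lower count was 2 without KO1 replicate 2, KO2 replicate 2 or TGF-β replicate 1. Of 16 tested markers of other nephron segments and other cell types 2 were higher and 3 lower, with a median of 0.03. There were 4 higher without KO1 replicate 1 and 5 lower without KO1 replicate 2. The median was 0.12 without KO1 replicate 2 and −0.28 without TGF-β replicate 1.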
